A study of Mus musculus with 2 samples.

Results

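The c-Jun N-terminal kinases (JNKs) and the kinases upstream of them were examined in tumour-infiltrating monocytic myeloid-derived suppressor cells (M-MDSCs) from mice fed a normal-salt diet (NSD) or a high-salt diet (HSD). The set held 10 genes of 20653 genes named on the array, namely the JNK genes Mapk8 and Mapk9, the MAP kinase kinases Map2k4 and Map2k7, the MAP kinase kinase kinases Map3k1, Map3k5, Map3k7 and Map3k11, the MAP kinase kinase kinase kinase Map4k4 and the scaffold gene Mapk8ip3. They were taken as genes with a place in the cascade, at a time when earlier results of these data were already known. Every non-control probe whose transcript identifier belonged to a member was used, which gave 20 probes, and all 10 genes had at least 1 of them.

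Female BABL/c mice had received 1000000 cells of the 4T1 mammary carcinoma line under the skin. The NSD group then ate chow with 0.4% NaCl and drank tap water, and the HSD group ate chow with 4% NaCl and drank water with 1% NaCl, in both cases for 16 days. The labels name no genetic alteration and no other treatment in either group. M-MDSCs were taken from the tumours with a magnetic bead kit for MDSCs, equal numbers of cells were mixed within a group, and RNA of each mixture was labelled with Cy3 and hybridised to 1 Agilent mouse array per diet. Each value below is therefore 1 pooled measurement per diet, no spread between mice can be given, and the diets could not be tested against each other.

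JNKs are stress-activated kinases that stand at the end of a chain of phosphorylation steps. MAP4Ks and small GTPases engage MAP3Ks, the MAP3Ks phosphorylate MKK4 and MKK7 (the products of Map2k4 and Map2k7), and these in turn phosphorylate JNK, which acts on c-Jun and other proteins. Osmotic stress, inflammatory cytokines and Toll-like receptor ligands are classical triggers of the chain, which in myeloid cells is known for its part in cytokine expression. The arrays measured transcripts, so they carry no information on the phosphorylation or the activity of these kinases.

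Signals are given as processed intensities, from which the scanner software had removed the background, each with the error that the software assigns to that spot. A fold change was computed after scaling each array to its 75th percentile (an intensity of 252 for the NSD and 233 for the HSD), so that a ratio of raw signals differs slightly from the fold change beside it. Its error combines the errors of both spots. Each member probe had a single spot on each array, 0 of these spots were flagged, and no non-control spot of either array was saturated. The errors therefore describe measurement within an array and nothing of the spread between mice. For 289 probes that were spotted several times, the median SD between spots of 1 array was 0.082 on the log2 scale, and it was 0.198 for signals under 30 intensity units.

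Few members differed between the diets by much. Of the 20 probes, 19 probes of 9 genes were well above background on both arrays, with 8 higher and 11 lower in the HSD group. A difference of at least 1.5-fold was reached by 1 probe in each direction, a Map2k4 probe that was higher in the HSD group and a Mapk9 probe that was lower, and the other 17 probes were within 1.5-fold. Among all probes that could be compared, 10.2% reached 1.5-fold in the direction of higher and 8.92% in that of lower signals under the HSD, against 5.26% of the member probes in each direction. The median log2 fold change of the member probes was −0.12 and their median absolute log2 fold change was 0.23, beside 0.058 and 0.26 over all 27236 probes well above background on both arrays.

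**Figure D1:**
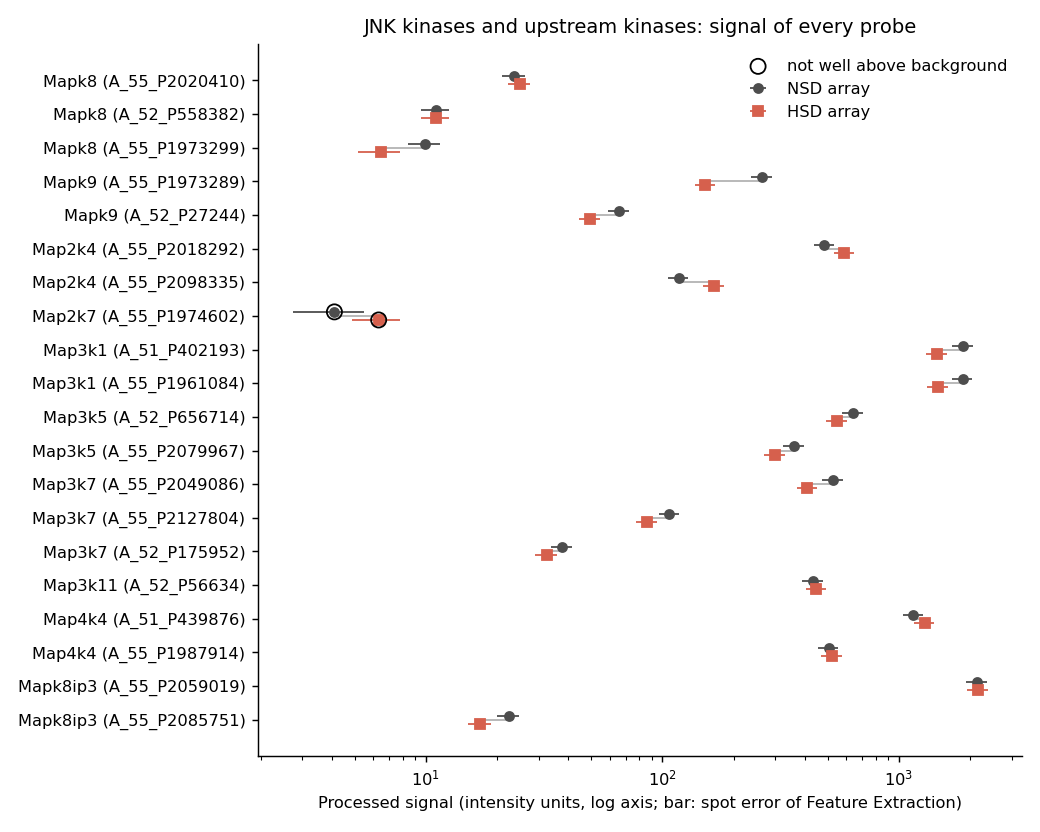
Processed signal of each of the 20 probes on the NSD array (circles) and the HSD array (squares), in intensity units on a log axis, with bars for the spot error assigned by the scanner software and rings around signals not well above background. The Mapk9 pair of points at 264.5 and 152.0 lies clearly apart, the Map3k11 and Map4k4 pairs nearly coincide, and the only ringed pair is Map2k7 (levels of different probes cannot be set against each other).

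The JNK genes differed from each other in how their probes behaved. Mapk9, which encodes JNK2, was measured by a pair of probes annotated to different RefSeq transcripts, and both were lower in the HSD group. The probe annotated to NM_001163672 (A_55_P1973289) had a signal of 264.5 ± 26.5 under the NSD and 152.0 ± 15.2 under the HSD. That is a log2 fold change of −0.68 ± 0.20, or 1.61-fold lower in the HSD group, and 87.8% of all probes had an absolute log2 fold change no larger than this. The probe annotated to NM_207692 (A_52_P27244) had 65.8 ± 6.66 under the NSD and 49.4 ± 5.05 under the HSD, a log2 fold change of −0.30 ± 0.21. The direction was shared, while the sizes lay 0.39 ± 0.29 apart on the log2 scale, so that only the first probe passed 1.5-fold.

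Mapk8, which encodes JNK1, gave weak signals, and its probes did not share a direction. All 3 probes carried the same transcript identifier. Probe A_55_P2020410 had 23.6 ± 2.57 under the NSD and 25.0 ± 2.71 under the HSD, a log2 fold change of 0.19 ± 0.22. Probe A_52_P558382 had 11.1 ± 1.51 under the NSD and 11.1 ± 1.496 under the HSD, a log2 fold change of 0.12 ± 0.28. Neither of these differences exceeded its own spot error. The dimmest probe, A_55_P1973299, had 9.93 ± 1.496 under the NSD and 6.48 ± 1.33 under the HSD, a log2 fold change of −0.50 ± 0.37. Its sign depended on the background correction, being positive at 0.11 with the normexp correction, and with cyclic loess normalization the value was −0.63, past 1.5-fold. With the scaling used here, no Mapk8 probe reached 1.5-fold.

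Of the MAP2Ks that phosphorylate JNK directly, only Map2k4 could be compared. Map2k4 encodes MKK4, which also activates p38, and both of its probes were higher in the HSD group. Probe A_55_P2098335 had 117.1 ± 11.7 under the NSD and 164.9 ± 16.5 under the HSD, a log2 fold change of 0.61 ± 0.20 and 1.52-fold, just past the threshold. It did not reach 1.5-fold when arrays were scaled only on probes measured well above background by both, with cyclic loess and with normexp (lowest value 0.47). Probe A_55_P2018292 had 483.9 ± 48.4 under the NSD and 587.9 ± 58.8 under the HSD, a log2 fold change of 0.40 ± 0.20. The Map2k4 probes differed from each other by 0.21 ± 0.29, less than the combined spot error. Map2k7 encodes MKK7, which acts on JNK and not on p38, and its only probe (A_55_P1974602) had 4.10 ± 1.37 under the NSD and 6.32 ± 1.44 under the HSD. Neither signal was well above background, so no fold change is given for Map2k7.

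The MAP3K members were the largest group, with 8 probes, of which 7 were lower in the HSD group and none reached 1.5-fold. Map3k1 encodes MEKK1, which phosphorylates MKK4, and both of its probes were slightly lower in the HSD group. Probe A_51_P402193 had 1865 ± 186 under the NSD and 1449 ± 145 under the HSD, and probe A_55_P1961084 had 1858 ± 186 under the NSD and 1461 ± 146 under the HSD. Their log2 fold changes were −0.25 ± 0.20 and −0.23 ± 0.20, only 0.017 apart. Map3k7 encodes TAK1, the MAP3K of the interleukin-1 and Toll-like receptor pathways that also leads to NF-κB. Its 3 probes were all slightly lower in the HSD group, from 526.1 ± 52.6 to 410.1 ± 41.0 (A_55_P2049086), from 107.1 ± 10.7 to 86.1 ± 8.66 (A_55_P2127804) and from 37.5 ± 3.87 to 32.4 ± 3.37 (A_52_P175952). The log2 fold changes were −0.24 ± 0.20, −0.20 ± 0.20 and −0.10 ± 0.21. The dimmest of them changed sign with the normexp correction, to 0.075.

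Map3k5 encodes ASK1, the MAP3K that is held inactive by thioredoxin and released by oxidative stress. Its probe A_52_P656714 had 641.1 ± 64.1 under the NSD and 546.8 ± 54.7 under the HSD, and its probe A_55_P2079967 had 360.9 ± 36.1 under the NSD and 299.2 ± 29.9 under the HSD. The log2 fold changes of −0.12 ± 0.20 and −0.16 ± 0.20 were both within the spot error. Map3k11 encodes MLK3, a mixed-lineage kinase bound by the small GTPases Rac and Cdc42, and it was the exception in direction. Its probe (A_52_P56634) had 434.2 ± 43.4 under the NSD and 448.0 ± 44.8 under the HSD, a log2 fold change of 0.16 ± 0.20. Over the MAP3K probes the median log2 fold change was −0.18. Since most of these probes repeat the same 3 genes, the 7 lower values are not 7 independent measurements.

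At the top of the chain, Map4k4, the kinase also called HGK that acts downstream of tumour necrosis factor, was slightly higher in the HSD group by both probes. Probe A_51_P439876 had 1152 ± 115 under the NSD and 1283 ± 128 under the HSD, a log2 fold change of 0.27 ± 0.20. Probe A_55_P1987914 had 504.6 ± 50.5 under the NSD and 522.6 ± 52.3 under the HSD, a log2 fold change of 0.16 ± 0.20. JIP3, the product of the scaffold gene Mapk8ip3, holds JNK together with its upstream kinases and is best known from axonal transport. Mapk8ip3 had a pair of probes with the same transcript identifier that disagreed. The brighter probe (A_55_P2059019) had 2142 ± 214 under the NSD and 2157 ± 216 under the HSD, a log2 fold change of 0.12 ± 0.20. The dimmer probe (A_55_P2085751) had 22.4 ± 2.43 under the NSD and 17.01 ± 1.93 under the HSD, a log2 fold change of −0.29 ± 0.23 that turned to 0.043 with the normexp correction.

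**Figure D2:**
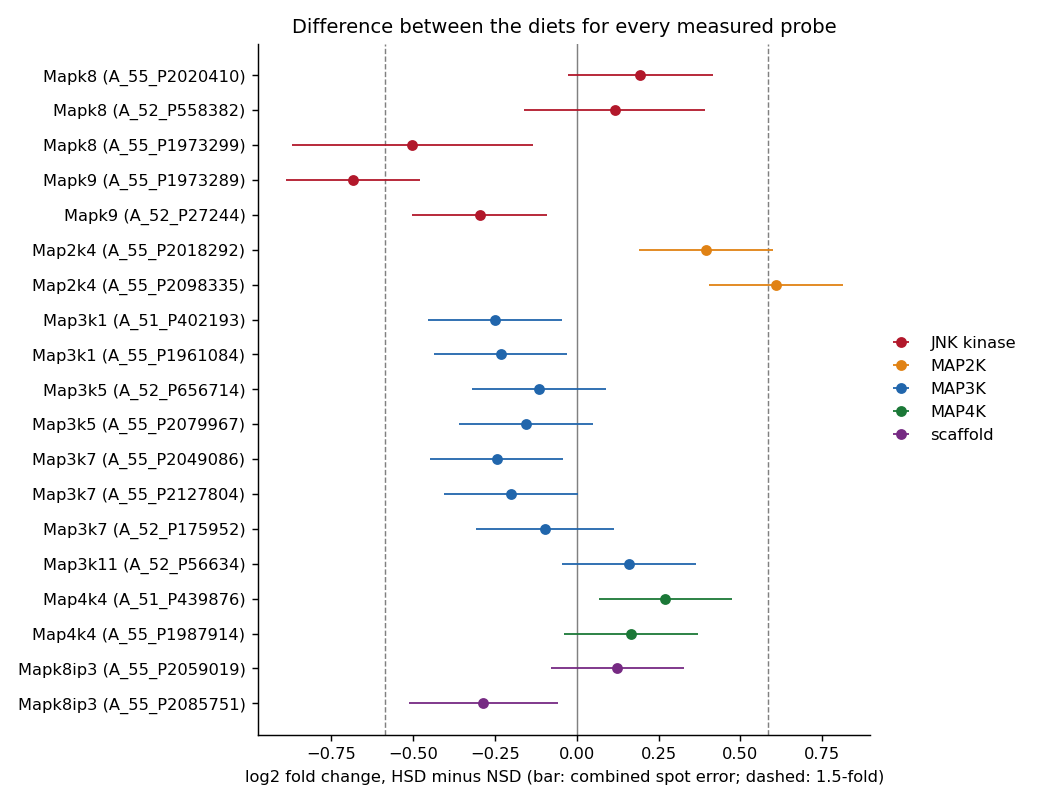
Log2 fold change of the HSD over the NSD group for the 19 member probes well above background on both arrays, coloured by role, with bars for the combined spot error of both arrays and dashed lines at 1.5-fold. The 7 MAP3K probes left of 0 lie between −0.25 and −0.10, both Map2k4 probes lie at 0.40 and 0.61, and the Mapk9 probe at −0.68 is the only point beyond the lower dashed line.

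Set against the spot error that the scanner software assigns, the differences of this cascade were small. Repeated spots implied a smaller SD for a difference between single spots, 0.116 on the log2 scale over all signals. It was 0.084 for signals of 300 and over and 0.280 for signals under 30. The counts that follow rest on the software error and would differ with that SD. The spot errors of the 19 probes ran from 10.0% to 20.6% of the signal. A difference larger than its combined spot error was seen for 10 of the 19 probes (52.6%), beside 55.5% of all probes well above background on both arrays. A difference larger than 2 combined errors was seen for 2 of the 19 (10.5%), the called Mapk9 and Map2k4 probes, beside 27.4% of all such probes. Of the 8 members with at least 2 measured probes, 6 had all probes in 1 direction, the exceptions being Mapk8 and Mapk8ip3. Over all 3683 genes with at least 2 such probes this share was 66.4%. The median distance between the probes of a member was 0.18 on the log2 scale, from 0.017 for Map3k1 to 0.70 ± 0.43 for Mapk8, and 0.26 was the median over all such genes.

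Most signs held when the processing was varied. Over 9 settings with a value for each probe, the main one included, 16 of the 19 probes kept their sign throughout. The exceptions were the dimmest Mapk8 probe, the dimmest Map3k7 probe and the dimmer Mapk8ip3 probe, each with normexp alone. The setting with no filter returned the main values. Only normexp, quantile normalization, cyclic loess and the deposited values moved member probes by differing amounts, so the other settings say little about a sign. The Mapk9 probe that passed 1.5-fold stayed between −0.73 and −0.46 (the latter with normexp, short of 1.5-fold), and the Map2k4 probe between 0.47 and 0.61.

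**Figure D3:**
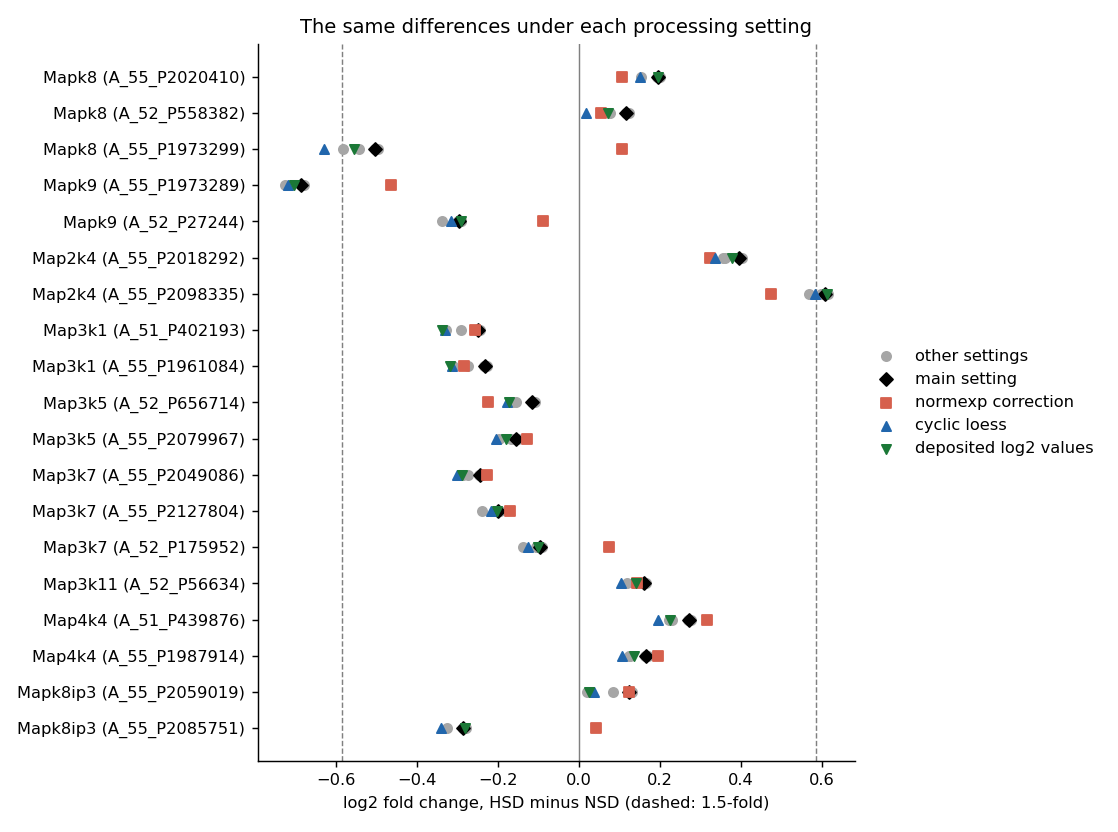
Log2 fold change of each of the 19 member probes under 9 processing settings, with the main setting as black diamonds and dashed lines at 1.5-fold. Most settings fall close together, partly because several of them repeat the main values or shift all probes alike. The normexp correction (red squares) lies apart for several dim probes and moves the dimmest Mapk8 probe from −0.50 to 0.11.

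The rest of the pathway was described with a list of 50 further genes, also chosen with earlier results known, each by its brightest probe. Of these, 47 genes could be compared, since Map3k10 and Map4k3 had no matched probe and Map3k20 was well above background under neither diet. The HSD group was higher for 37 of the 47 and lower for 10, with a median log2 fold change of 0.32, whereas 54.2% of all 16316 genes that could be compared were higher, with a median of 0.045. At least 1.5-fold was reached by 7 genes that were higher (14.9%) and 2 that were lower (4.26%), beside 9.86% higher and 10.3% lower over all genes. With the normexp correction 3 of the 7 (Itch, Map4k2 and Ripk1) and 0 of the 2 reached it. The median of the list stayed above 0 under all settings run, from 0.26 to 0.33, and between 34 and 40 of its genes were above 0.

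The remaining JNK gene, Mapk10, encodes JNK3, which is known mainly from brain and heart. Its brighter probe had 4.69 ± 1.096 in the NSD group, not well above background, and 13.6 ± 1.68 in the HSD group. The log2 fold change was 1.65 ± 0.38, or 3.14-fold higher. This value was handled as a lower bound because the NSD signal was dim, yet within the spot error the ratio could also be smaller. The second Mapk10 probe was well above background on neither array, so the difference rests on a single weak spot.

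The other MAP3Ks and the TAB proteins that bind TAK1 showed no common direction. Of 14 that could be compared, 9 were higher and 5 lower, with a median of 0.17. Map3k6 (ASK2), the partner of ASK1, was the one past 1.5-fold, with 26.5 ± 2.85 under the NSD and 46.1 ± 4.72 under the HSD, a log2 fold change of 0.92 ± 0.21. Its paralogue Map3k5, described above, had log2 fold changes of −0.12 and −0.16. For Taok2 the brightest probe gave 0.19 ± 0.20, while a dimmer probe, not counted here, passed 1.5-fold at 0.63 ± 0.21.

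Of 5 MAP4K genes that could be compared besides Map4k4, 4 had a higher and 1 a lower signal under the HSD, and 2 of the higher ones and the lower one passed 1.5-fold. Map4k2 (germinal centre kinase) had 738.3 ± 73.8 under the NSD and 1221 ± 122 under the HSD, a log2 fold change of 0.84 ± 0.20. Tnik, a close relative of Map4k4, had a log2 fold change of 0.82 ± 0.35 on signals of only 5.52 ± 1.09 under the NSD and 8.997 ± 1.29 under the HSD. Map4k5 was 1.57-fold lower, with 317.9 ± 31.8 under the NSD and 187.5 ± 18.8 under the HSD.

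Among 5 other scaffold genes, 4 were higher without reaching 1.5-fold. Sh3rf1, which encodes the scaffold POSH that links Rac to MLK kinases and JNK, was lower in the HSD group, with 34.7 ± 3.61 under the NSD and 17.6 ± 2.00 under the HSD, a log2 fold change of −0.86 ± 0.22. A second Sh3rf1 probe gave −0.70 ± 0.27, and the remaining probe was well above background under neither diet.

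Of 13 upstream GTPases and adaptors, 11 were higher and 2 lower, with a median of 0.40. Ripk1, the kinase that links tumour necrosis factor receptors to MAP3Ks, was the one past 1.5-fold, from 710.0 ± 71.0 in the NSD group to 993.5 ± 99.4 in the HSD group, or 1.51-fold. This was just past the threshold and was lost with quantile normalization, with cyclic loess and with scaling to probes well above background on both arrays.

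Of 9 JNK substrates, 8 were higher in the HSD group, with a median of 0.28. Some of these differences were within their combined spot error. They were Elk1 (0.0068 ± 0.20), Nfatc3 (0.099 ± 0.20), Bmf (0.14 ± 0.20) and the weak Irs1 (0.28 ± 0.37). The Elk1 probe used had 66848 under the NSD and 62048 under the HSD. A second Elk1 probe had 4.52 under the NSD and 5.03 under the HSD and was well above background under neither diet. Why the Elk1 probes differ so much was not tested. A second Irs1 probe was also well above background under neither diet. Itch, a ubiquitin ligase that JNK activates, had 1588 ± 159 under the NSD and 3004 ± 300 under the HSD, a log2 fold change of 1.03 ± 0.20. Bcl2l11, which encodes the pro-apoptotic protein Bim, had 64.8 ± 6.54 under the NSD and 103.2 ± 10.4 under the HSD, a log2 fold change of 0.79 ± 0.21. Jun, which encodes c-Jun, did not reach 1.5-fold, with 1231 in the NSD group, 1452 in the HSD group and a log2 fold change of 0.35 ± 0.20. Atf2, the 1 substrate that was lower, is uncertain, since its 4 probes gave −0.29, 1.27, 0.51 and 0.15 in order of falling signal.

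**Figure D4:**
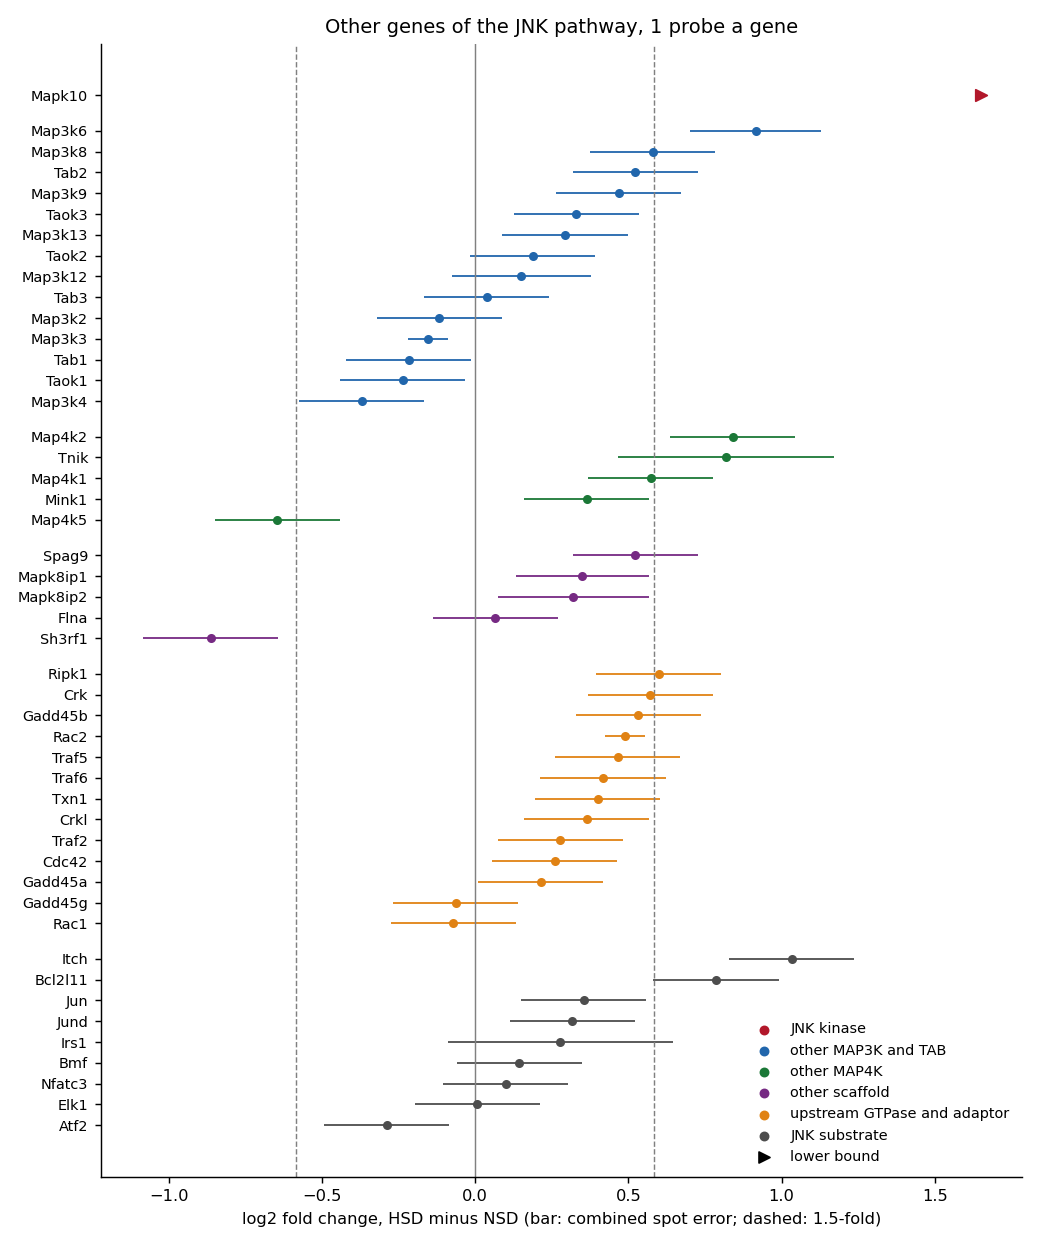
Log2 fold change of the HSD over the NSD group for the 47 other pathway genes that could be compared, 1 probe a gene, grouped by role, with bars for the combined spot error, dashed lines at 1.5-fold and an arrowhead for a lower bound. GTPases, adaptors and substrates lie mostly right of 0, while Map4k5 and Sh3rf1 are the only genes left of the lower dashed line.

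The cell composition of the mixtures bears on how the values can be read, since in bulk RNA fewer cells of a type and less RNA per cell cannot be told apart. Of 8 monocyte markers, 7 had a matched probe (Ly6c2 had none), and these 7 were well above background on both arrays, with a summed scaled signal (signal over the 75th percentile) of 450 under the NSD and 441 under the HSD. The sum hides opposite differences, since Fcgr1 (log2 fold change −3.68 ± 0.21) and Ccr2 (−0.78 ± 0.20) were at least 1.5-fold lower and Cd14 (0.82 ± 0.20) at least 1.5-fold higher under the HSD, and the median of the 7 was −0.37. All 8 neutrophil markers with a matched probe (Ly6g had none) were likewise well above background, at signals between 1643 and 61816 in the NSD group and between 2168 and 59918 in the HSD group, although the labels name monocytic cells. Their summed scaled signal was 1325 under the NSD and 1393 under the HSD, and 0 of 8 differed by 1.5-fold. Of 7 macrophage markers with a matched probe (Cd68 had none), 5 were lower by 1.5-fold or more under the HSD. The median log2 fold change, −1.36, was a bound from the weak C1qa probe. Adgre1 (−0.55 ± 0.20) was lower within 1.5-fold, and C1qb (0.33 ± 0.21) was higher within it. The sums of 56.3 under the NSD and 37.3 under the HSD came mostly from Adgre1 (26.7 and 18.3) and Apoe (28.2 and 18.6). B cell markers had sums of 24.3 and 30.6, and 0 of 5 differed by 1.5-fold. The 4T1 carcinoma cell markers had sums of 0.638 and 0.641, yet 3 of 7 were at least 1.5-fold higher under the HSD, namely Epcam (0.70 ± 0.24), Krt8 (0.61 ± 0.32) and Krt18 (0.76 ± 0.24), while Krt5 (−0.54 ± 0.21) and Cdh1 (−0.43 ± 0.067) had lower signals within 1.5-fold. The part of any of these cells in the values of the JNK pathway was not tested.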

How the data were processed

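RNA of tumour M-MDSCs, pooled within each diet, had been hybridised to 1-colour Agilent arrays, 1 per diet, on a shared slide. For each array, the authors deposited intensities by spot as Feature Extraction 11.0.1.1 had written them, with background and spatial trend removed and no scaling between arrays, together with the error of each processed signal and the median brightness of spot and local background. The authors also deposited normalized log2 values made with GeneSpring, by a method not given in the sources used here, and these served as an alternative. Of its columns of values per sample, 0 were left unused.

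Left out were all control spots and those marked as outliers for uniformity or population (162 and 179 of 43020 for the NSD and the HSD). Processed signals were taken to log2 and repeated spots were averaged by probe. Each array's 75th percentile, taken over the 39413 non-control probes with a value on both arrays, was subtracted. Transcript identifiers were matched without versions to RefSeq genes of the GRCm38.p6 mouse assembly, and 27223 of 39413 probes (69.1%) obtained a name. Coordinates are omitted because the grid dates from an earlier assembly. A probe with several spots was taken as well above background where at least 50% of them were, and this held for 71.9% of probes under the NSD and 72.4% under the HSD. A fold change was given where a probe passed this in at least 1 group, as a lower bound where it was dim on the other, and a difference was counted from 1.5-fold. All members were named with every probe. Of the other pathway genes and the marker genes, the probe brightest in mean log2 signal stood for the gene, and the pathway genes named were Mapk10 and those at least 1.5-fold different. Jun, Atf2, Elk1, Nfatc3, Bmf, Irs1, Taok2, the single marker genes and the genes without a value were named after their values had been seen. The members and the lists were chosen with earlier results of these data known.

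With 1 array per diet no test was run, and precision is limited by that number. Counting was checked on simulated probes with known changes. Alternatives were normexp background correction (offset 50, on median signals), quantile normalization, cyclic loess, scaling to the median or to probes bright enough under both diets, the deposited log2 values, flagged spots kept, a filter on both arrays, no filter, a 2-fold threshold and the median over a gene's probes. Computations were run in R 4.3.3 (limma 3.58.1) and Python 3.11.15 (pandas 2.3.3, numpy 2.4.6), with plots by matplotlib 3.10.9.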

Additional observations from a re-analysis of the deposited data

How the results depend on the processing

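With 1 array per diet, every value is a single difference, no replicate could be left out, and dim probes (Mapk8, Map2k7, Mapk10, Tnik) are limited by their signal over background. No paired analysis was possible because each diet had 1 array. Of 152 recomputed values of single member probes, 145 moved by less than 0.116 on the log2 scale, the SD of a difference between single spots that repeated spots imply. Part of this count was fixed in advance, since the values with no filter were those of the main setting. Keeping flagged spots and changing the scaling (to the median or to probes well above background on both arrays) shifted all member probes alike. Each of these shifts was below 0.116. Of the member probes, the 1 that was at least 1.5-fold higher (Map2k4) became 0 with normexp, with cyclic loess, with scaling to probes well above background on both arrays and with a 2-fold threshold, and became 2 with no filter, which adds the dim Map2k7 probe. The 1 that was lower (Mapk9) became 0 with normexp and with the 2-fold threshold and 2 with cyclic loess, which adds a Mapk8 probe. The median log2 fold change of the member probes moved from −0.12 to 0.053 with normexp. For the other pathway genes, the 7 that were higher became 3 with normexp and 2 with the 2-fold threshold, and the 2 that were lower became 0 with both. Normexp adds an offset of 50 to every signal and so compresses the ratios of dim probes. Over all probes, 3030 were higher and 2639 lower, against 961 and 923 with normexp, 6010 and 3757 with no filter, and 793 and 1039 with the 2-fold threshold. Of the counted differences, 53.4% were higher, against 42.4% with cyclic loess. No setting of scale moved the median over all probes beyond −0.0096 to 0.072 on the log2 scale. Where no construction is named, the cause was not tested.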
